A study of Arabidopsis thaliana with 60 samples.

Results

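Brz220 is a code-named inhibitor of brassinosteroid biosynthesis of the brassinazole type, and its effect on transcript levels in Arabidopsis thaliana seedlings was followed over time and dose. All groups were whole 7-day-old Col-0 seedlings hybridised to Affymetrix ATH1 arrays, with 2 arrays per group. The treated groups were 10 µM Brz220 for 3 h (bracket F1), 10 µM Brz220 for 12 h (bracket F2) and 3 µM Brz220 for 3 h (bracket G). Each was set against the mock treatment of the same time in the same bracket, the bracket being the letter code by which the labels tie a treatment to its control; what the mock contained is not given in the sources used here. These 6 Brz220 arrays and 6 mock arrays were taken by their labels from 60 arrays in 30 groups, and the 3 comparisons share no array. Whether replicate arrays were hybridised with RNA from separate cultures is not stated, and p-values therefore cover only the spread between arrays, part of which may be technical.

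Brassinosteroids are steroid hormones made from sterols through a chain of cytochrome P450 steps, and brassinazoles act on one of these enzymes. The hormone is perceived at the cell surface by the receptor kinase BRI1, and the signal ends in the BZR1 family of transcription factors. In seedlings it drives cell elongation, in part through genes whose products loosen the cell wall, such as expansins and xyloglucan endotransglucosylase/hydrolases (XTH), and it represses the genes of its own synthesis.

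Values are MAS5 intensities, rescaled here so that each array has a 2% trimmed mean of 1000. Differences are on the scale of log2(intensity + 95.95), as Brz220 minus mock ± SE, and they understate the change of dim probe sets. A probe set was called where limma's p, adjusted by Benjamini-Hochberg over 17301 probe sets, was under 0.05. For a typical (median) probe set the 95% interval of a difference was ± 0.426 on the log2 scale. Replicate arrays correlated with r between 0.9665 and 0.9814. The 3′ to 5′ signal ratio of actin, a sign of RNA integrity, lay between 1.23 and 1.74 on the Brz220 arrays and between 1.37 and 1.89 on the mock arrays, with the highest value on replicate 1 of the 3 h F1 mock; its part in the results was not tested. Only 9601 of the tested probe sets name a single gene, so many calls are known by probe set ID alone. A gene named only by its locus is given no role unless one is stated.

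The first question was what 10 µM Brz220 did after 12 h, the longest exposure. Among the named genes that fell were the expansin EXPA8 (1 of 13 measured expansin genes), the xyloglucan endotransglucosylase genes XTH18, XTH19 and XTH33 (3 of 7 measured), and CSLC04, which encodes a synthase of the xyloglucan backbone. The most negative difference of all belonged to AT1G29660, the gene of a GDSL-type esterase/lipase, which was 8.16-fold lower on the scale of intensity + 95.95. The highest named gene was AT5G01740, which was 4.32-fold higher on the same scale. In all, 49 probe sets rose and 83 fell, which is 0.283% and 0.48% of those tested (0.763% together), and 18 of the risen and 34 of the fallen name 1 gene. At unadjusted p under 0.05 there were 1394 probe sets, or 8.06%, where no change would leave 5%.

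**Figure D1:**
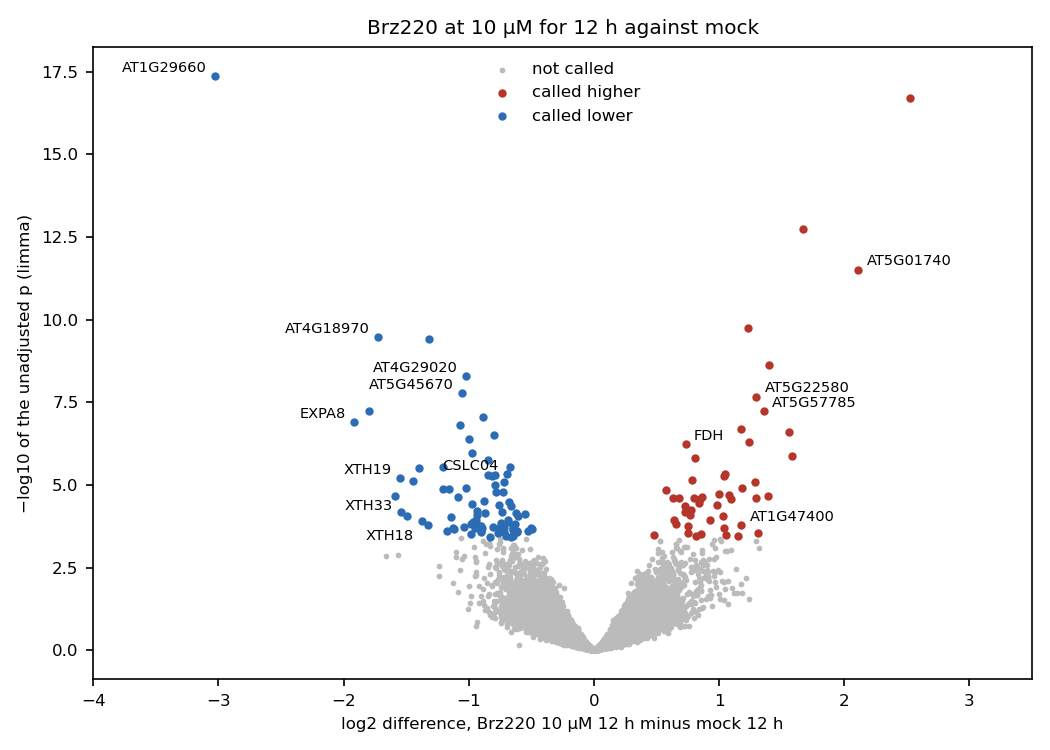
Each point is 1 of 17301 probe sets, with the log2 difference of 10 µM Brz220 at 12 h minus mock on the x axis and −log10 of limma's unadjusted p on the y axis; red points were called higher (49), blue points lower (83). AT1G29660 lies apart at the left at -3.03 and AT5G01740 at the right at 2.11; called points without a label include probe sets with no gene name.

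AT1G29660 had intensities of 334 and 409 with Brz220 at 12 h, against 3657 and 3751 in the mock (-3.03 ± 0.19, adjusted p = 7.32e-14). No other tested probe set had as small an adjusted p in this comparison. AT4G18970 had 486 and 412 with Brz220, against 1647 and 1760 in the mock (-1.73 ± 0.21, adjusted p = 9.22e-07). In both genes the Brz220 arrays lay far below the mock arrays and the replicates lay close together.

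EXPA8 encodes an alpha-expansin, a protein that loosens the wall at acid pH. It had 299 and 259 with Brz220 at 12 h, against 1216 and 1433 in the mock (-1.92 ± 0.30, adjusted p = 0.000148). XTH19 had 755 and 374 with Brz220, against 1939 and 1591 in the mock (-1.55 ± 0.30, adjusted p = 0.00294). XTH18 had 524 and 395 with Brz220, against 1457 and 1220 in the mock (-1.37 ± 0.32, adjusted p = 0.0251). XTH enzymes cut and rejoin xyloglucan chains between cellulose fibres. XTH18 and XTH19 are close relatives, and how far their probes also bind each other's transcript was not tested. XTH33 was dim, with 144 and 113 with Brz220, against 498 and 621 in the mock (-1.54 ± 0.34, adjusted p = 0.0157). CSLC04 had 2221 and 2026 with Brz220, against 3302 and 3696 in the mock (-0.70 ± 0.13, adjusted p = 0.0026). None of these 5 genes had a Brz220 array as high as a mock array. That was a condition of naming genes by largest change, and both Brz220 arrays lay beyond both mock arrays for 37.7% of all tested probe sets. The means of all 6 other treated groups of F2 also lay below this mock for XTH18, XTH33 and CSLC04. For EXPA8 and XTH19 5 of the 6 did, and whether the mock itself stood high was not tested.

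Further fallen genes with a known product were TBL45 (-0.97 ± 0.21, adjusted p = 0.00987), of a family linked to acetylation of wall polysaccharides, UGT78D1 (-0.90 ± 0.22, adjusted p = 0.0309), a flavonol rhamnosyltransferase, and DRT100 (-0.77 ± 0.19, adjusted p = 0.0395), a leucine-rich repeat protein. TBL45 had 881 and 1176 with Brz220, against 2005 and 2188 in the mock. UGT78D1 had 481 and 239 with Brz220, against 825 and 637 in the mock, so its Brz220 arrays differed from each other more than those of TBL45. Among loci without a symbol, AT5G45670 had 421 and 419 with Brz220, against 954 and 1000 in the mock (-1.06 ± 0.15, adjusted p = 2.91e-05). AT4G29020 was bright, with 4418 and 4769 with Brz220, against 9214 and 9670 in the mock (-1.02 ± 0.14, adjusted p = 9.76e-06). AT2G47440 (-1.001), AT1G12845 (-0.98) and AT2G35390 (-1.18) fell too; AT2G35390 rests on a dim probe set with 47 and 149 with Brz220, against 360 and 295 in the mock. UGT78D1, DRT100, CSLC04 and FDH are named outside the rule for named genes, because their products are known, after their values had been seen.

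On the higher side, AT5G01740 had 3581 and 4009 with Brz220 at 12 h, against 904 and 712 in the mock (2.11 ± 0.21, adjusted p = 1.32e-08). AT5G57785 had 7749 and 8145 with Brz220, against 2799 and 3296 in the mock (1.36 ± 0.20, adjusted p = 7.89e-05). AT5G22580 had 7709 and 8078 with Brz220, against 2948 and 3373 in the mock (1.297 ± 0.18, adjusted p = 3.35e-05). These were bright probe sets whose Brz220 arrays lay more than 2-fold above the mock arrays. AT1G47400, which encodes an iron-deficiency peptide, had 5141 and 3573 with Brz220, against 1884 and 1805 in the mock (1.18 ± 0.28, adjusted p = 0.0296). OSM34, an osmotin-like protein, had 1955 and 2116 with Brz220, against 1015 and 848 in the mock (1.06 ± 0.27, adjusted p = 0.0455). Enzymes of primary metabolism among the risen genes were PPDK, pyruvate orthophosphate dikinase, and FDH, formate dehydrogenase. PPDK had 1887 and 1783 with Brz220, against 984 and 980 in the mock (0.84 ± 0.18, adjusted p = 0.00948). FDH had 11765 and 12559 with Brz220, against 7232 and 7310 in the mock (0.73 ± 0.12, adjusted p = 0.000469). The other risen genes named by rule were AT3G19660 (1.31), AT2G39400 (1.08), AT3G47800 (1.05), AT2G39210 (0.85), AT1G44830 (0.81) and AT2G30060 (0.81). AT3G19660 was dim, at 454 and 266 with Brz220, against 141 and 41 in the mock. Bracket F2 holds the only 12 h mock. All 6 other treated groups of F2 also had higher means than this mock for OSM34, PPDK, FDH, AT3G19660, AT3G47800, AT2G39210 and AT1G44830. For AT5G01740, AT5G57785 and AT2G39400 5 of the 6 did, for AT5G22580 and AT2G30060 4, and for AT1G47400 3. Whether the mock itself stood low was not tested. The calls of OSM34, AT1G44830 and AT3G19660 were lost under most of the alternative settings listed below. So were those of the fallen genes XTH33, AT2G35390 and DRT100.

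All 132 called probe sets at 12 h had both Brz220 arrays beyond both mock arrays, as had 37.7% of all tested probe sets. The count of calls was 79 without replicate 1 and 38 without replicate 2 of Brz220, and 43 without replicate 1 and 46 without replicate 2 of the mock; without the replicate block it was 81. Of the 52 named genes, 11 were called under each of the 10 alternatives, which were AT1G29660, AT4G18970, EXPA8, AT5G45670, AT4G29020, AT2G47440, AT5G01740, AT5G57785, AT5G22580, FDH and AT2G30060; the XTH genes and CSLC04 were not among them.

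**Figure D2:**
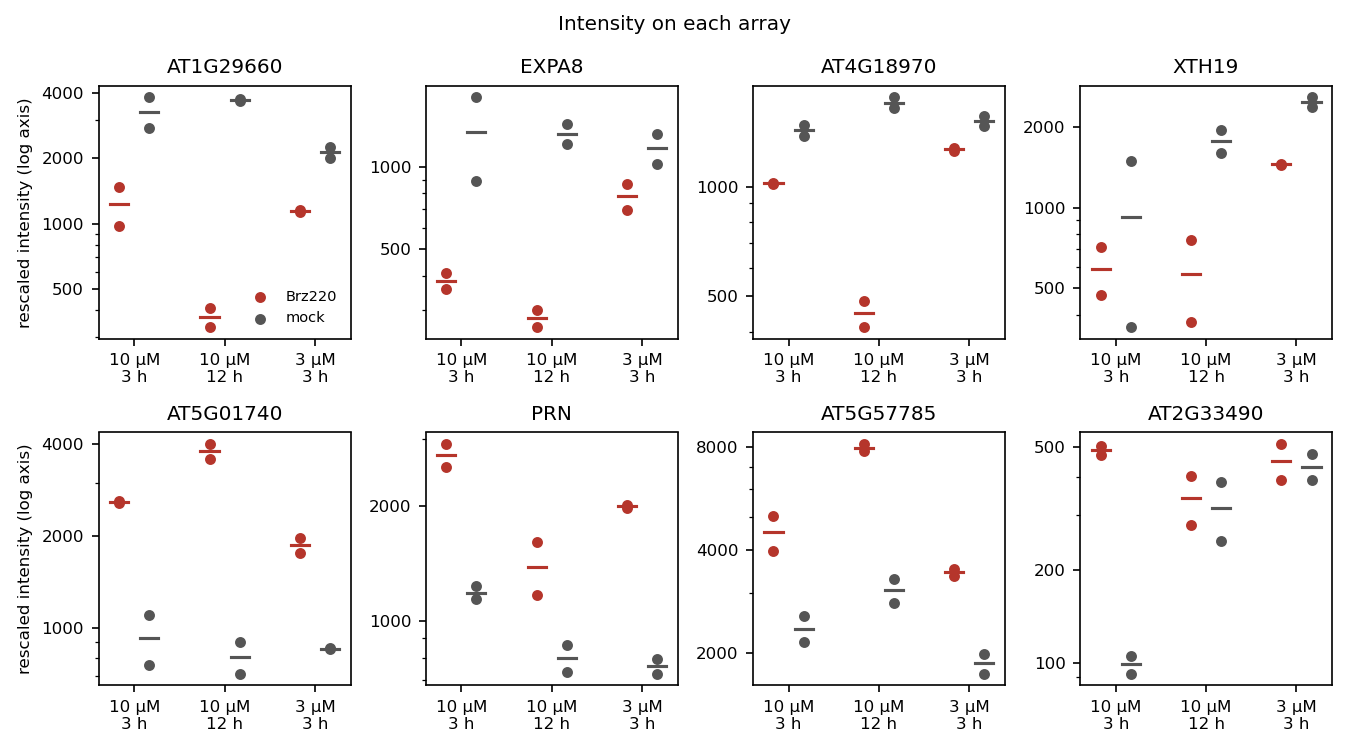
Rescaled intensity (log axis, a different range in each panel) of 8 genes on each array, with Brz220 in red left of mock in grey for each comparison; points are arrays and bars are the means of 2 arrays. AT1G29660 stood at 334 and 409 with Brz220 at 12 h, against 3657 and 3751 in the mock, while AT2G33490 was called only at 10 µM for 3 h, where its mock stood at 105 and 92.

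The second question was how much of this was present after 3 h at 10 µM. Limma called 8 probe sets higher and 9 lower (0.0462% and 0.052% of those tested, 0.0983% together), of which 4 and 6 name 1 gene, and 1313 (7.59%) had unadjusted p under 0.05. EXPA8 and AT1G29660 had fallen, AT5G01740 had risen, and PRN, which encodes a pirin of the cupin fold, rose as well. All 17 had both Brz220 arrays beyond both mock arrays, as had 33.4% of all probe sets.

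EXPA8 had 408 and 358 with Brz220 at 3 h, against 1798 and 889 in the mock (-1.51 ± 0.30, adjusted p = 0.0148). Its mock arrays differed about as much from each other as replicate 2 of the mock did from the Brz220 arrays. AT1G29660 had 1483 and 980 with Brz220, against 3815 and 2757 in the mock (-1.36 ± 0.19, adjusted p = 0.000137). AT5G01740 had 2568 and 2600 with Brz220, against 1107 and 761 in the mock (1.40 ± 0.21, adjusted p = 3e-04). PRN had 2524 and 2908 with Brz220, against 1235 and 1138 in the mock (1.13 ± 0.22, adjusted p = 0.0148). The Brz220 arrays of AT5G01740 and PRN were at least 2-fold above each mock array of their bracket. AT5G44680 had 582 and 492 with Brz220, against 1538 and 1331 in the mock (-1.27 ± 0.23, adjusted p = 0.00699). AT2G35880 (-0.91 ± 0.20, adjusted p = 0.0465), AT3G49220 (-0.80 ± 0.15, adjusted p = 0.0148) and AT5G45670 (-0.69 ± 0.15, adjusted p = 0.0465) were the other fallen named genes. For each of these 3 genes all 17 other treated groups of bracket F1 also had lower means than its mock. For AT5G44680 16 of these 17 groups did, and 3 had lower means than Brz220. Relative to the G mock the F1 mock stood at 0.24 for AT2G35880, 0.08 for AT3G49220 and -0.40 for AT5G45670 (adjusted p = 0.519, 0.831 and 0.0857).

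The risen genes AT2G33490 and AT3G16530 also differed between the mocks of brackets F1 and G. AT2G33490 had 468 and 503 with Brz220, against 105 and 92 in the mock (1.58 ± 0.28, adjusted p = 0.00645), and AT3G16530 had 6643 and 8353 with Brz220, against 3840 and 4348 in the mock (0.85 ± 0.18, adjusted p = 0.0336). In the F1 mock AT2G33490 was -1.43 (adjusted p = 0.000898) and AT3G16530 -0.88 (adjusted p = 0.00131) relative to the 3 h mock of bracket G. All 17 other treated groups of bracket F1 had higher means than its mock for either gene. Over all probe sets 1370 differed between these mocks.

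Leaving out an array changed the 3 h count to 4 without replicate 1 and 3 without replicate 2 of Brz220, to 5 without replicate 1 of the mock and to 45 without replicate 2 of the mock. AT5G01740 was the only one of the 10 named genes called under each of the 10 alternatives.

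Genes called at one time or dose were then read in the other comparisons. Of the 83 probe sets lower at 12 h, 78 (94%) had negative differences at 3 h and 10 µM, against 53.2% of all probe sets, and 44 (53%) had a negative difference with unadjusted p under 0.05, against 4.38% of all. Of the 49 higher at 12 h, 40 (81.6%) had positive differences at 3 h, against 46.8% of all probe sets, and 22 (44.9%) did so with unadjusted p under 0.05, against 3.21% of all. The 3 h differences were smaller, with a median of -0.41 at 3 h beside -0.88 at 12 h for the lower set and 0.38 beside 1.03 for the higher set; the 12 h values chose these probe sets. Conversely, all 9 probe sets lower at 3 h had negative differences at 12 h, against 50.2% of all probe sets, and 7 were called lower there, against 0.48% of all. Of the 8 higher at 3 h 7 had positive differences at 12 h, against 49.8%, and 4 were called higher, against 0.283%. Over all 17301 probe sets the differences at the 2 times correlated with r = 0.188, as a description across probe sets, which are not independent. Of the 17 other treated groups of F1, all 17 lay below the mock for AT4G18970 and 16 for EXPA8, but 3 for XTH19. Other compounds were not read across times in this way, so whether the shared sign is particular to Brz220 was not tested.

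**Figure D3:**
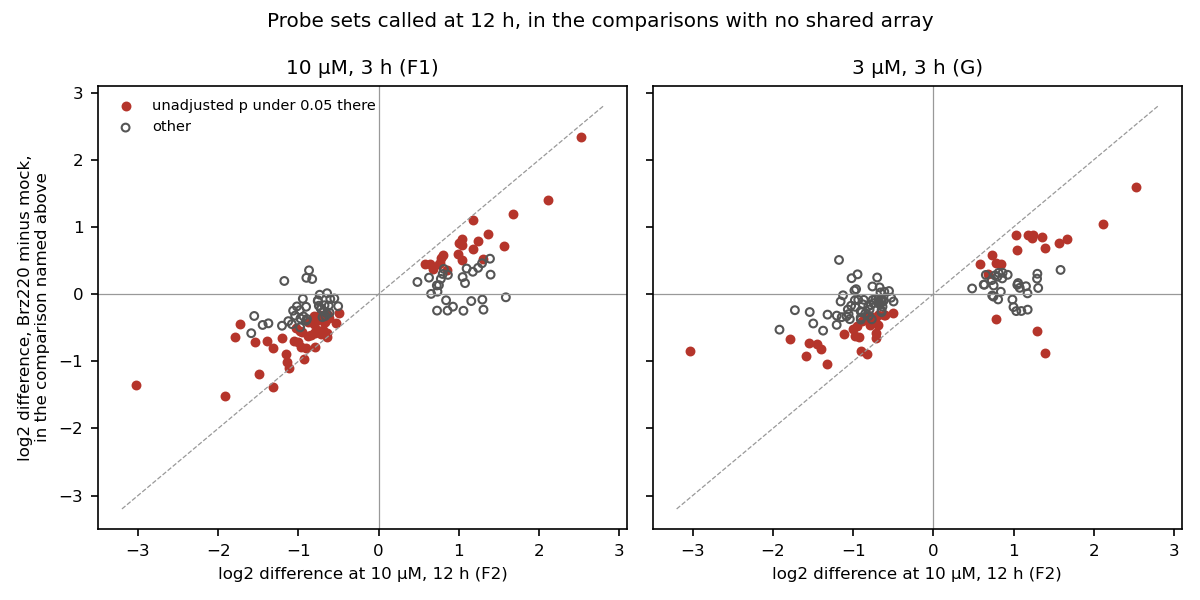
The 132 probe sets called at 12 h, with their log2 difference at 10 µM and 12 h on the x axis and, on the y axis, that at 10 µM and 3 h (left) or 3 µM and 3 h (right); filled points had unadjusted p under 0.05 in the comparison on the y axis, and the dashed line marks equal differences. Most points lie in the lower left and upper right parts of the panels and nearer to 0 on the y axis than on the x axis: 78 of 83 lower and 40 of 49 higher probe sets keep their sign at 10 µM and 3 h.

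The difference between the responses at 12 h and 3 h was tested directly. AT1G29660 was the single call (0.00578% of probe sets), with a response lower at 12 h by -1.67 (95% interval -2.22 to -1.12, adjusted p = 0.00707), while 908 probe sets (5.25%) had unadjusted p under 0.05. AT4G18970 differed by -1.28 (95% interval -1.87 to -0.69, adjusted p = 0.337), XTH19 by -1.23 (-2.07 to -0.38, adjusted p = 0.794) and FDH by 0.70 (0.35 to 1.05, adjusted p = 0.41). These did not pass the correction, although each was called at 12 h and not at 3 h. For EXPA8 the interval ran from -1.25 to 0.44 and for AT5G01740 from 0.11 to 1.31. Each time has its own mock and bracket, so time and bracket cannot be told apart. The call of AT1G29660 was lost without replicate 1 of Brz220 at 3 h, without replicate 1 of Brz220 at 12 h and without either 12 h mock array, which each gave 0 calls in all; the count was 2 without replicate 1 and 7 without replicate 2 of the 3 h mock.

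The third question was what the lower dose, 3 µM for 3 h, did. Limma called 7 probe sets higher and 2 lower (0.0405% and 0.0116%, 0.052% together), and 660 (3.81%) had unadjusted p under 0.05, which is fewer than the 5% that no change would leave. Named among them were PRN and AT5G01740, which rose as they had at 10 µM, and AT4G36700, which fell. All 9 had both Brz220 arrays beyond both mock arrays, as had 35.8% of all probe sets.

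PRN had 2018 and 1982 with 3 µM Brz220, against 794 and 728 in the mock (1.29 ± 0.22, adjusted p = 0.00455). AT5G01740 had 1768 and 1971 with 3 µM Brz220, against 860 and 854 in the mock (1.04 ± 0.21, adjusted p = 0.031). For both genes each Brz220 array was above 2-fold of each mock array. AT4G36700 had 30 and 360 with 3 µM Brz220, against 761 and 704 in the mock (-1.79 ± 0.36, adjusted p = 0.031), so its fall rests on Brz220 arrays that disagreed by more than 10-fold. At 10 µM AT4G36700 stood at -0.21 after 3 h and 1.32 after 12 h, neither called, and its F1 mock was -2.07 relative to its G mock. AT1G29660 had 1161 and 1127 with 3 µM Brz220, against 2262 and 1997 in the mock (-0.84 ± 0.19, adjusted p = 0.107), and EXPA8 had 869 and 697, against 1324 and 1028 in the mock (-0.53 ± 0.30, adjusted p = 1). The arrays did not overlap for either gene, but neither difference passed. The count of 9 was 20 without the pseudocount and 2 in a fit of only the 6 Brz220 and 6 mock arrays of all brackets. No named gene was called under each of the 10 alternatives.

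Calls at 10 µM were read at 3 µM in the same way. Of the 8 probe sets higher at 10 µM and 3 h, all 8 had positive differences at 3 µM, against 50.5% of all probe sets, and 5 were called higher there, against 0.0405% of all. All 9 lower at 10 µM had negative differences at 3 µM, against 49.5%, but 0 were called by limma and 5 had unadjusted p under 0.05. Their medians were 1.3 at 10 µM and 0.83 at 3 µM for the higher set, and -0.91 and -0.46 for the lower set, the 10 µM values having chosen them. Of the 12 h calls, 72 of 83 lower (86.7%) and 38 of 49 higher (77.6%) had the same sign at 3 µM, against 49.5% and 50.5% of all probe sets. The same sign with unadjusted p under 0.05 was found for 27 of the lower (32.5%, against 2.01% of all probe sets) and 16 of the higher (32.7%, against 1.81%), while 3 of the higher had negative differences at such a p, as had 2.01% of all. Over all probe sets the 2 doses at 3 h correlated with r = 0.0436. Here too, whether the shared sign is particular to Brz220 was not tested.

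A direct test of the response at 10 µM minus that at 3 µM gave 0 calls by limma, with 876 probe sets (5.06%) at unadjusted p under 0.05 and a lowest adjusted p of 0.178. For AT5G01740 the 95% interval of the difference ran from -0.24 to 0.96 and for PRN from -0.80 to 0.48. For AT1G29660 it ran from -1.07 to 0.04 and for EXPA8 from -1.83 to -0.14. The EXPA8 interval excluded 0, but EXPA8 was not called, and its F1 mock arrays stood apart at 1798 and 889. For a typical (median) probe set the interval of the difference between doses was ± 0.602. On the log2 scale the F1 and G mock means were 11.71 and 11.12 for AT1G29660 and 10.32 and 9.74 for PRN. They were 9.99 and 9.90 for AT5G01740 and 10.42 and 10.30 for EXPA8. The Brz220 means at 10 µM and 3 µM were 10.35 and 10.28 for AT1G29660 and 11.45 and 11.03 for PRN. Dose and bracket cannot be told apart, and a p that misses the threshold does not show that the doses acted alike. Without single arrays the count was up to 6, without replicate 2 of the G mock; it was 3 without replicate 2 of the F1 mock, 2 without replicate 1 and 3 without replicate 2 of 3 µM Brz220, and 1 without the pseudocount.

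Across the 3 comparisons 142 probe sets were called at least once, 12 in at least 2 comparisons and 4 in all 3. The 4 were all higher: AT5G01740 and the probe sets 256598_at, 267305_at and 250752_at, which have no gene name here. Only 256598_at was called in all 3 comparisons under every alternative. The 3 µM calls of AT5G01740, 267305_at and 250752_at did not hold under every alternative, nor did that of 250752_at at 10 µM and 3 h. For 256598_at the intensities were 3887 and 4143 with 10 µM for 3 h, against 647 and 782 in the mock. They were 6497 and 6791 with 10 µM for 12 h, against 1119 and 1037 in the mock. They were 3936 and 4039 with 3 µM for 3 h, against 1351 and 1174 in the mock. Its differences of 2.35, 2.52 and 1.59 had adjusted p of 3.52e-12, 1.76e-13 and 3.26e-07, and at 10 µM its mean was the highest of the 19 groups at 3 h and of the 8 at 12 h. It was high with related compounds too: propiconazole gave 2995 and 4078 at 3 h and 5725 and 5174 at 12 h, so the propiconazole arrays overlapped those of Brz220 at 3 h. With Brz91 the 12 h intensities were 4581 and 4915, and with uniconazole 3754 and 4465. The F1 mock was -0.75 (adjusted p = 0.00392) relative to the G mock. The same 3 differences were 1.19, 1.67 and 0.82 for 267305_at and 0.79, 1.23 and 0.84 for 250752_at. Named genes called in 2 comparisons were EXPA8, AT1G29660, AT3G49220 and AT5G45670, lower at both times at 10 µM, and PRN, higher at both doses at 3 h; PRN stood at 0.72 ± 0.22 at 12 h (adjusted p = 0.179).

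Lists of genes of the hormone pathway and its targets were then read. They were chosen with earlier results of these data known, so the shares of members called describe the lists and are not an independent test. None of 11 brassinosteroid biosynthesis genes, 16 signalling genes, 15 sterol biosynthesis genes or 9 brassinosteroid-repressed genes was measured by a tested probe set that names it, so they were not analysed here. Of 7 inactivation genes only BAT1, an acyltransferase that inactivates brassinosteroids, was measured, at -0.18 (10 µM, 3 h), -0.0011 (10 µM, 12 h) and 0.39 (3 µM, 3 h), not called in any. Of 20 brassinosteroid-induced genes 5 were measured: EXO, EXPA4, EXPA8, XTH18 and XTH19. At 12 h 3 of the 5 fell, against 0.48% of all probe sets, and the median was -1.37, beside -0.0011 over all probe sets; at 3 h and 10 µM 1 fell (EXPA8), against 0.052% of all, with a median of -0.44 beside -0.0197; at 3 µM 0 were called, with a median of -0.53 beside 0.00199. EXO, whose product promotes leaf growth, stood at -0.62 at 3 h (adjusted p = 0.29) and -0.63 at 12 h (adjusted p = 0.19), and at -0.31 at 3 µM.

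Of 24 expansin and expansin-like genes 13 were measured. EXPA8 was the single call, at 12 h and at 3 h for 10 µM, and 0 were called at 3 µM; the medians were -0.07 at 3 h, -0.29 at 12 h and -0.17 at 3 µM. At 3 h and 10 µM 6 of the 13 were positive and 7 negative, and at 12 h 2 were positive and 11 negative. The expansin-like genes EXLA1 and EXLA2 stood at -0.69 and -0.71 at 3 h and 10 µM, not called. The beta-expansin EXPB3 stood at 0.53 ± 0.24 there (adjusted p = 0.602), with 1073 and 1172 with Brz220, against 732 and 767 in the mock, and the F1 mock was -0.67 (adjusted p = 0.0733) relative to the G mock. At 12 h EXPB3 stood at -0.60 ± 0.24 (adjusted p = 0.401), with 1107 and 1003 with Brz220, against 1742 and 1558 in the mock, and at 3 µM at -0.03. EXPA4 and EXPA9 stood within 0.3 of 0 in all comparisons with mock. Of 23 XTH genes 7 were measured, and 3 fell at 12 h (XTH18, XTH19 and XTH33), against 0.48% of all probe sets, 0 at 3 h and 0 at 3 µM, with medians of -0.76, -0.33 and -0.25 in that order. XTH16 stood at -0.76 at 12 h (adjusted p = 0.071), while XTH20 stood at 0.28 and XTH32 at 0.19; at 3 h and 10 µM these stood at 0.35 and 0.39. At 3 h and 10 µM XTH19 had 712 and 474 with Brz220, against 1492 and 359 in the mock, so the groups overlapped, and that F1 mock was -1.59 (adjusted p = 0.000487) relative to the G mock. The called expansin and XTH genes, except XTH33, are also members of the brassinosteroid-induced list, so these lists are not separate evidence.

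**Figure D4:**
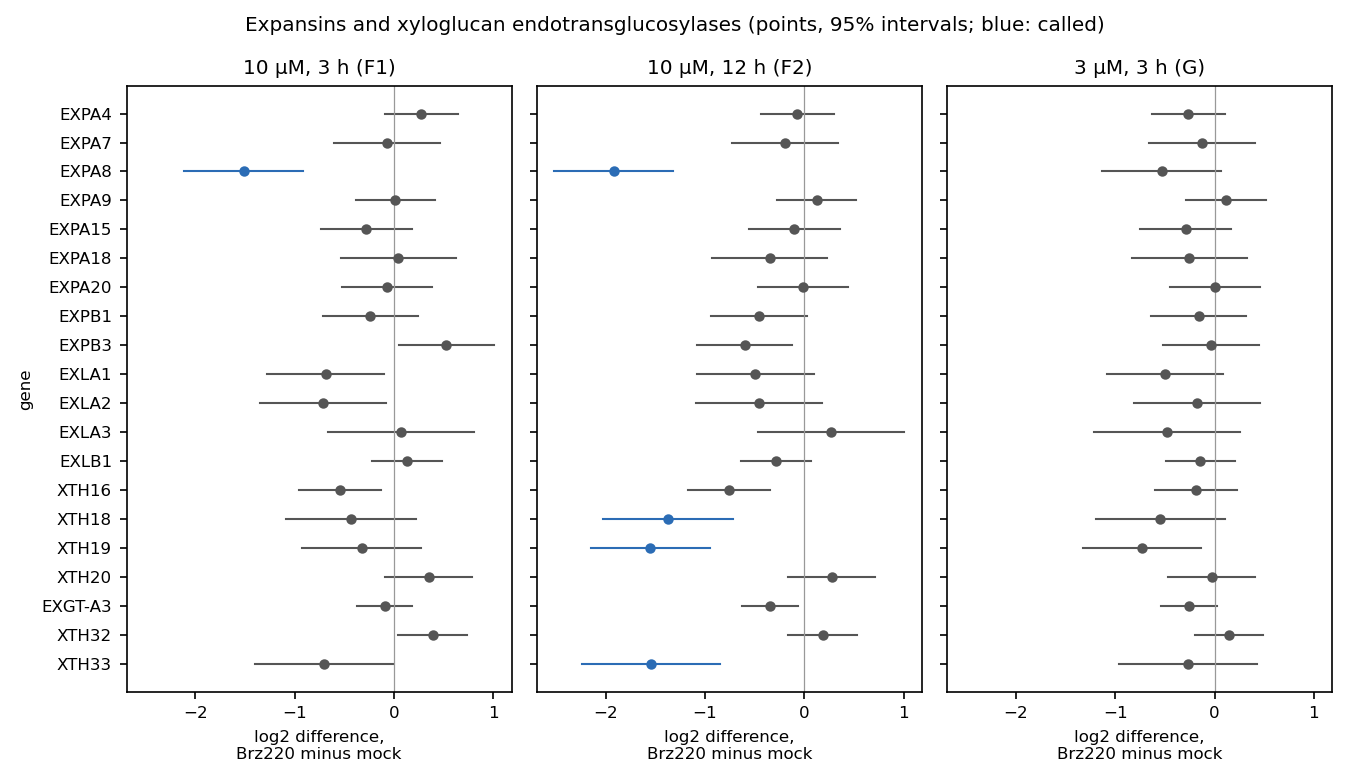
Log2 difference of Brz220 minus mock (points) with 95% intervals (lines) for the 13 measured expansin and 7 measured XTH genes in each comparison; blue marks called genes. EXPA8 is blue at 10 µM at both times, and XTH18, XTH19 and XTH33 only at 12 h, while most other intervals include 0.

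Other lists had few or no calls. Of 17 auxin response genes 9 were measured and 0 were called by limma; GH3.3, which conjugates auxin to amino acids, stood at -1.07 at 12 h (adjusted p = 0.21), and the dim GH3.1 at -1.14 at 3 h and 10 µM (adjusted p = 0.35), 0.24 at 12 h and 0.43 at 3 µM. The medians of the 9 were -0.28 at 3 h and 10 µM, -0.26 at 12 h and 0.17 at 3 µM. Of 14 detoxification genes 4 were measured with 0 calls, and the glutathione transferase GSTU22 stood at 0.74 at 3 h and 0.83 at 12 h (adjusted p = 0.42 and 0.25). The 4 measured gibberellin genes, the receptors GID1A, GID1B and GID1C and the RING protein XERICO, had 0 calls and stayed between -0.35 and 0.35. The 3 measured touch and stress genes, WRKY6, WRKY53 and STZ, had 0 calls. Of the tissue markers, the 3 measured of 14 root markers (EXPA7, EXPA18 and GH9C1) and the 1 measured of 13 shoot markers (LHCB4.1) had 0 calls. The root marker medians were 0.04 at 3 h and 10 µM, -0.21 at 12 h and -0.24 at 3 µM. At 12 h and at 3 µM all 3 were negative. LHCB4.1 stood at -0.08, -0.05 and 0.16 in that order. So few genes cannot serve as a check of the tissue. In whole seedlings fewer cells of a type and less RNA per cell cannot be told apart.

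Brz220 was finally set beside the other treated groups of its brackets, which share its mock. At 12 h AT1G29660 had 334 and 409 with Brz220, 406 and 449 with propiconazole, 455 and 484 with uniconazole, 676 and 619 with Brz91 and 861 and 806 with paclobutrazol, against 3657 and 3751 in the mock. Brz220 had the lowest mean, but its arrays overlapped those of propiconazole. EXPA8 had 299 and 259 with Brz220, against 329 and 484 with propiconazole, and 660 and 949 with Brz91. Brz220 also had the lowest mean of the 8 groups at 12 h for XTH18, XTH19, XTH33, AT4G18970, AT5G45670, AT4G29020, TBL45, UGT78D1 and EXO. All of these except EXO were named here from among the genes called lower with Brz220, so their rank is not separate evidence. Brz220 did not have the lowest mean for DRT100, where propiconazole was lower, or for XTH16, where uniconazole was lowest. For CSLC04 3 other groups were lower. At 12 h all 6 other treated groups lay below the mock for AT1G29660, XTH18, XTH33, CSLC04, AT5G45670, AT4G29020 and UGT78D1. For EXPA8, XTH19, AT4G18970, TBL45 and DRT100 5 of the 6 did. Whether the 12 h mock itself stood high for these genes was not tested. At 3 h Brz220 did not have the lowest mean of AT1G29660 or EXPA8. Of the 17 other F1 groups 5 had a lower mean of AT1G29660 than Brz220, and 15 lay below the mock. For EXPA8 3 had a lower mean and 16 lay below the mock.

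**Figure D5:**
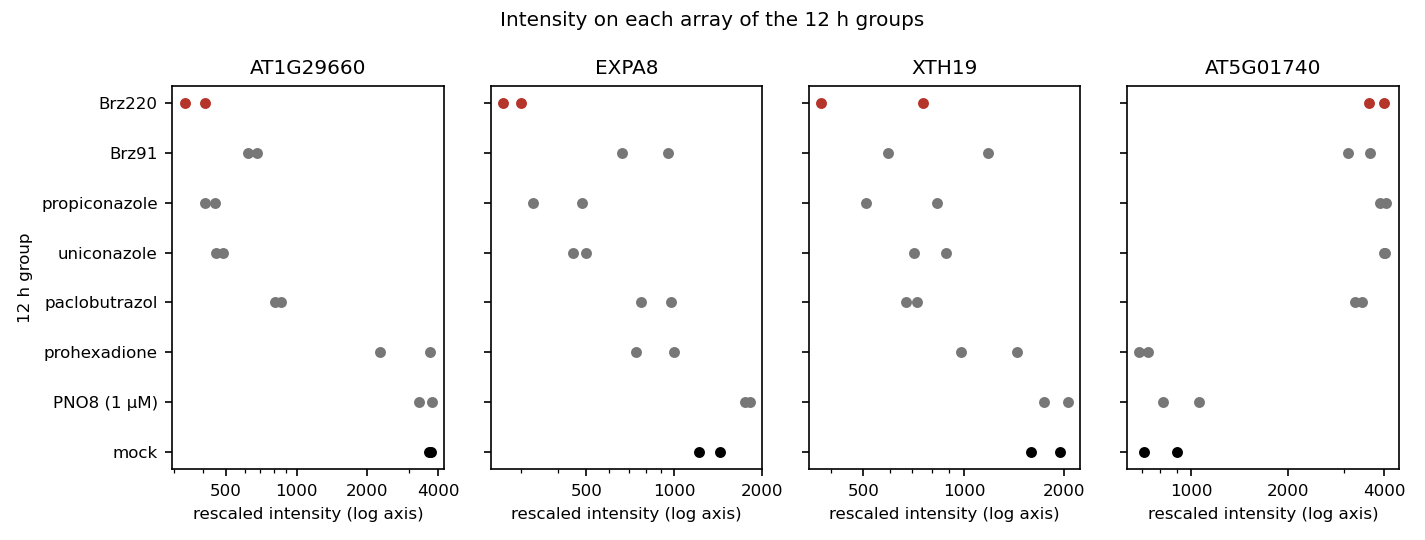
Rescaled intensity (log axis) of AT1G29660, EXPA8, XTH19 and AT5G01740 on each array of the 8 groups at 12 h, with Brz220 at 10 µM in red at the top and mock in black at the bottom; all other compounds were at 10 µM except PNO8. Brz220 has the lowest mean of the first 3 genes, and in AT5G01740 its 3581 and 4009 lie among the 5 groups from Brz220 to paclobutrazol.

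Brz220 was tested directly against Brz91, the other brassinazole, and against uniconazole, at the same 10 µM and the same time, which makes 4 tests. Limma called 0 probe sets in each, with 928 (5.36%) and 672 (3.88%) at unadjusted p under 0.05 for Brz220 minus Brz91 at 3 h and 12 h, and 516 (2.98%) and 1422 (8.22%) for Brz220 minus uniconazole at 3 h and 12 h. The lowest adjusted p was 0.104 against Brz91 and 0.055 against uniconazole, both at 12 h. At 12 h EXPA8 was -1.25 relative to Brz91 (95% interval -1.84 to -0.65, adjusted p = 0.437) and AT1G29660 was -0.67 (-1.07 to -0.28, adjusted p = 0.984). AT1G47400 was -1.19 relative to Brz91 at 3 h (95% interval -1.76 to -0.62, adjusted p = 0.406) and 1.15 at 12 h (0.59 to 1.72, adjusted p = 0.44). At 12 h it had 5141 and 3573 with Brz220, against 1886 and 1862 with Brz91. None passed the correction. For AT5G01740 the 12 h interval was -0.25 to 0.60 against Brz91 and -0.51 to 0.34 against uniconazole. FDH was -0.39 relative to uniconazole at 12 h (95% interval -0.63 to -0.14, adjusted p = 0.352). Against its own mock, Brz91 had 38 calls at 3 h and 94 at 12 h, and uniconazole 17 and 476. The comparison with uniconazole at 12 h gave 28 calls without replicate 2 of uniconazole, 1 without replicate 1 and 3 without replicate 2 of Brz220, and 5 without the pseudocount; at 3 h it gave 2 without replicate 1 of uniconazole. The comparison with Brz91 gave 1 call without replicate 1 of Brz220 and 2 without replicate 2 of Brz91 at 3 h, and at 12 h 1 without replicate 2 of Brz220, 4 without the pseudocount and 3 without the filter.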

How the data were processed

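The authors deposited MAS5 intensity values on a linear scale, per the submitters' processing notes. The sources used here give neither its version nor its scaling target. The deposited 2% trimmed mean differed between sets of arrays: it was 1523 and 1220 for replicates 1 and 2 of F1, 1020 and 1441 for F2, and 1360 and 1267 for G. Here each array was rescaled to 1000, 64 of 22810 probe sets were left out as controls, and a probe set was kept where it exceeded the 40th percentile of an array on 2 or more arrays. From the deposited intensities, once rescaled, log2(intensity + 95.95) was computed, the pseudocount being the median 20th percentile. Group means of all 60 arrays were fitted together in limma 3.58.1 (R 4.3.3), with the replicate number within a bracket as a block (27 residual degrees of freedom, intensity trend), with Benjamini-Hochberg adjustment and a threshold of 0.05, two-sided. The block was included because arrays of 1 number in 1 bracket were scaled together; rescaling removes that shared level, and what else the block takes up was not tested. The numbers themselves are not shown to pair seedlings: deviations of Brz220 and mock replicates correlated with r = 0.0876 (F1), 0.0402 (F2) and 0.0096 (G). The number of arrays limits the precision.

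Gene names came from the platform's probe table, matched to TAIR10.1 names: 13513 probe sets name 1 gene, 503 several and 8730 were not listed. In each comparison with mock the 12 highest and 12 lowest called genes whose groups do not overlap were named, with called list members, the most changed members of the hormone and wall lists, and genes called in at least 2 comparisons; unnamed probe sets called in all 3 were added. Of 203 listed genes in 15 lists 44 were measured, in 10 lists, the list of abscisic acid genes having 0. The members, lists and rules were chosen with earlier results of these data known. The fit was tested on simulated data. Alternatives were no block, no rescaling, quantile normalization, no pseudocount, no filter, only the arrays compared, and each array left out. The arrays compared were all Brz220 and mock arrays, with those of Brz91 or uniconazole added where Brz220 was set against these.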

Additional observations from a re-analysis of the deposited data

Results flagged for a closer look

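The response of AT1G29660 to 10 µM Brz220 differed between 12 h and 3 h by -1.67 on the log2 scale, in a test of the difference itself (adjusted p = 0.00707, limma). The differences from mock were -3.03 at 12 h and -1.36 at 3 h, and all 4 Brz220 arrays lay below all 4 mock arrays. Time and bracket cannot be told apart. The call did not hold when some single arrays were left out. Over all alternatives the difference ran from -1.90 to -1.45.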

How the results depend on the processing

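No called value of a named gene changed sign under any alternative. Without the replicate block the calls numbered 12 beside 17 at 10 µM and 3 h, 81 beside 132 at 10 µM and 12 h and 6 beside 9 at 3 µM, and the counts of the 6 other comparisons were as before (1 for time, 0 for the rest). Without the pseudocount there were 20 calls at 3 µM, 1 for the dose difference, 4 for Brz220 minus Brz91 at 12 h and 5 for Brz220 minus uniconazole at 12 h. Without the filter there were 2 for the time difference and 3 for Brz220 minus Brz91 at 12 h. With only the 6 Brz220 and 6 mock arrays of all brackets fitted there were 2 at 3 µM. All other counts stayed within 1.5 times under the alternatives that keep all arrays; for these changes the cause was not tested. Leaving out 1 array in turn, with the lone array assumed to vary like the other groups, gave 3 to 45 calls at 10 µM and 3 h, 38 to 79 at 12 h, 2 to 8 at 3 µM, 0 to 7 for the time difference, 0 to 6 for the dose difference, 0 to 2 and 0 to 1 for Brz220 minus Brz91 at 3 h and 12 h, and 0 to 2 and 0 to 28 for Brz220 minus uniconazole at 3 h and 12 h. Without rescaling the 12 h count was 125, and with quantile normalization 127. The replicate numbers are not shown to pair samples, and the shared scaling level is removed before the fit, so the counts without the block stand beside those with it.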
